A study of Mus musculus with 6 samples.

Results

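The Bmal1, Rev-Erb and ROR loop of the circadian clock was examined through 7 genes, chosen by name from the 56305 genes of the expression table, with earlier results of these data known. They were Arntl, which encodes Bmal1, Clock, Npas2, Nr1d1, which encodes Rev-Erbα, Nr1d2, which encodes Rev-Erbβ, Rora and Nfil3. RNA-Seq was available for the livers of 3 WT and 3 Vps15LKO mice, all male, 5 weeks old, fed ad libitum under a light–dark cycle and killed at ZT6, in the light phase. Vps15LKO mice are AlbCre+;Vps15 f/f, so that Cre under the albumin promoter deletes Vps15, the regulatory subunit of class 3 PI3K, chiefly in hepatocytes and from early life on. The labels name the control genotype WT and give no further alleles. Each library was made from polyA RNA of 1 whole liver, so cells without albumin-driven Cre contributed to every value. In such bulk samples, fewer cells of a type and less RNA per cell cannot be told apart.

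Bmal1 pairs with Clock, or with its paralogue Npas2, and the pair binds E-boxes to switch on many genes, among them Nr1d1 and Nr1d2. Rev-Erbα and Rev-Erbβ bind ROR elements and repress transcription with the NCoR–HDAC3 complex, while RORα, the product of Rora, binds the same elements and activates, and Arntl, Clock, Npas2 and Nfil3 are known genes under this control. Nfil3, also called E4BP4, represses through D-boxes, which the activators Dbp, Tef and Hlf also bind. In liver, Rev-Erbs are known for daily repression of genes of lipid and glucose metabolism.

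RefSeq promoter windows, 250 bases before to 50 bases after each transcription start on GRCm38.p6, were found for 7 of 7 members, at 10 starts. The windows of 4 members are printed as examples of the ROR elements and the E-box variant that were found. Each was read on the strand of its gene. Capitals mark matches to the searched letters or to their reverse complement. Distances are given from the transcription start to the first base of the match, with the start itself as base 1. The Arntl window lies at chr7:113207261-113207560 on the plus strand, that of Nr1d1 at chr11:98775328-98775627, that of Nr1d2 at chr14:18239057-18239356 and that of Nfil3 at chr13:52980990-52981289, the last 3 on the minus strand.
Arntl: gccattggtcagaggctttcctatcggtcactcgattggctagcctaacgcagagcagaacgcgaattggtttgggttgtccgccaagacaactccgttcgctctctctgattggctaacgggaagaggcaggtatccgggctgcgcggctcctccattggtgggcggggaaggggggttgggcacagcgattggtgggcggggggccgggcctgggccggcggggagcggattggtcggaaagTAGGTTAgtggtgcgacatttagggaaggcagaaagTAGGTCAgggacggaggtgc
Nr1d1: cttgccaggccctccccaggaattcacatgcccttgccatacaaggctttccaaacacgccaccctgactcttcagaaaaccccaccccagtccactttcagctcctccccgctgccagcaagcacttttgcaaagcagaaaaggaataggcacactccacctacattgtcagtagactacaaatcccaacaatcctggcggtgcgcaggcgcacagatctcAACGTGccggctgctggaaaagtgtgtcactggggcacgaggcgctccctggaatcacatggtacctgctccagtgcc
Nr1d2: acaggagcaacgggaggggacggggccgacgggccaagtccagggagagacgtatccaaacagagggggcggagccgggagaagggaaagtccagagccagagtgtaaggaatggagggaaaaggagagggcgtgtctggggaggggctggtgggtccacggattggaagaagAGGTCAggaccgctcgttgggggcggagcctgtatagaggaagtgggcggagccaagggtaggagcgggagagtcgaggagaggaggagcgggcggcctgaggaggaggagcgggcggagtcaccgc
Nfil3: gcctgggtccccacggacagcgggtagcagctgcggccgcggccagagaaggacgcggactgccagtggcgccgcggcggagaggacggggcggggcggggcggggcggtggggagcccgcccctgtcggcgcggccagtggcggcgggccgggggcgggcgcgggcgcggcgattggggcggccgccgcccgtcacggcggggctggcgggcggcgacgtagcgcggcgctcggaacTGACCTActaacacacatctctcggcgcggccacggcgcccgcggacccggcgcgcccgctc

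On both strands, 5 motifs were searched: CACGTG as E-box, AACGTG as a variant of it, AGGTCA as the half-site of the ROR element, TAGGTNA as its core, and TTANGTAA as D-box. Arntl held 2 ROR element cores, TAGGTTA 6 bases before the start and TAGGTCA at base 31 after it, and the half-site AGGTCA lies inside the latter. At the other Arntl start, whose window overlaps the one printed, the same TAGGTTA lies at base 41 after the start. Nfil3 held 1 core on the opposite strand, read as TGACCTA 12 bases before the start, which also contains the half-site. Nr1d2 held the half-site AGGTCA 77 bases before the start, and at 1 of its 3 starts Clock held it as TGACCT 119 bases before. Nr1d1 held the E-box variant AACGTG 28 bases before the start. The windows of Npas2, of Rora and of the other 2 Clock starts held none of the 5. Among all 32851 windows of this length, 7.15% held CACGTG, 4.68% AACGTG, 16.3% AGGTCA, 8.29% TAGGTNA and 2.32% TTANGTAA. A match describes letters and not a bound site, and no match means only that these letters are not in the window.

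The libraries held 16137093 to 18110223 reads on genes, and the authors' normalized counts rest on DESeq2 size factors of 0.742 to 0.801 in WT and 1.23 to 1.41 in Vps15LKO livers. One read was thus worth 1.25 to 1.35 normalized counts in WT but 0.707 to 0.810 in Vps15LKO livers. Values were compared with limma on log2(normalized count + 1), a scale that understates the change of low genes, and a gene was called at a Benjamini-Hochberg adjusted p under 0.05 with a fold of at least 1.2. In Vps15LKO livers, 33.0% of the 15430 genes tested were called lower, and 33.5% were called higher. Scaling by total reads moved the median log2 fold change over all genes by 0.72, and then 11.1% were called lower and 66.8% higher. Reference-gene scaling, on Eef1a1, Gapdh and Pnn, moved it by 0.22 and upper-quartile scaling by 0.12. Pik3r4, which encodes Vps15, had 508, 573 and 460 normalized counts in WT and 341, 362 and 355 in Vps15LKO livers, with a log2 fold change of −0.54 (adjusted p = 0.00207, limma), though it was not called under total-read scaling (0.19) or reference-gene scaling (−0.31). The paper reports for fibroblasts that the recombined locus lacks an exon and still yields a truncated Vps15 protein. Counts here cover the whole gene and do not separate that exon. Hepatocyte markers summed to 3050956 to 3438691 normalized counts in WT livers and to 938354 to 1400312 in Vps15LKO livers, so the libraries carry the labelled tissue.

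Of the 7 loop genes, 5 were called lower in Vps15LKO livers (Clock, Nr1d1, Nr1d2, Rora and Nfil3), beside 33.0% of all genes tested. Arntl was not called. Npas2 lay higher in Vps15LKO livers. The median log2 fold change of the 7 was −0.78, beside −0.02 over all genes tested. The values of the 2 genotypes did not overlap for 6 of the 7. Over all genes tested, 36.8% had no overlap with lower values in Vps15LKO livers and 36.4% with higher values. In WT livers alone, 6 of the 7 passed the filter of 20 normalized counts in 3 livers. Npas2 passed it through the Vps15LKO livers only and so had to be higher there, and its values are given as a description.

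**Figure D1:**
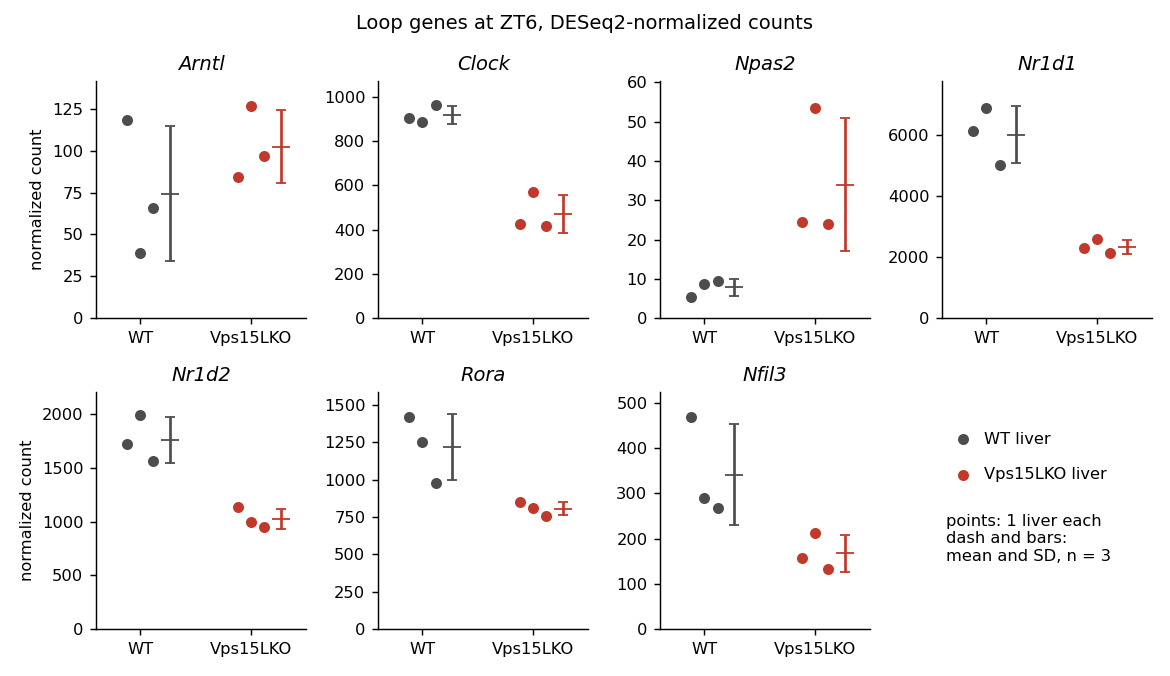
DESeq2-normalized counts of the 7 loop genes at ZT6, 1 point per liver, with the mean and SD (n = 3) beside each group; every vertical axis starts at 0. Clock, Nr1d1, Nr1d2, Rora and Nfil3 lie lower in every Vps15LKO liver than in any WT liver, Npas2 lies higher, and the Arntl values of the genotypes overlap.

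Among the activators, the transcript of Bmal1 differed by less than the spread between livers. Arntl (ENSMUSG00000055116, chr7:113207465-113314126 of GRCm38, plus strand) had 118, 38.7 and 66.1 normalized counts in WT livers and 84.0, 126 and 96.9 in Vps15LKO livers. WT replicate 1 exceeded Vps15LKO replicates 1 and 3, whereas the other WT livers lay below every Vps15LKO liver. The log2 fold change was 0.58 with an SE of 0.36 and a 95% interval of −0.25 to 1.41 (adjusted p = 0.186, limma with Benjamini-Hochberg adjustment), so no change and a 2-fold rise both lie inside the interval. These values rest on 31 to 89 reads in WT and 110 to 156 in Vps15LKO livers. Arntl had 5.002, 1.71 and 3.04 RPM (its reads scaled to the same total of reads on genes in every library) in WT and 6.13, 8.62 and 7.59 in Vps15LKO livers, without overlap. Under total-read scaling its log2 fold change was 1.30 (adjusted p = 0.00583, limma), under reference-gene scaling 0.80 (adjusted p = 0.0345, limma), and without WT replicate 1 it was 0.98 (adjusted p = 0.0193, limma), all 3 called higher. Those 2 scalings raised all genes together, with medians of 0.70 and 0.21 and with 66.8% and 38.8% of genes called higher. Over all alternatives, its adjusted p ran from 0.00583 to 0.817.

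Clock, the partner of Bmal1 and itself an acetyltransferase, fell. It lies at chr5:76209868-76304792 on the minus strand (ENSMUSG00000029238). Its normalized counts were 906, 887 and 964 in WT and 425, 571 and 419 in Vps15LKO livers. All 3 WT livers sat close together, and even Vps15LKO replicate 2, the highest of its group, stood well below them. It changed by −0.98 on the log2 scale (SE 0.13, 95% interval −1.27 to −0.68, adjusted p = 0.000215, limma), a 1.97-fold difference. In RPM, Clock had 38.4, 39.2 and 44.3 in WT and 31.0, 39.0 and 32.8 in Vps15LKO livers, where replicate 2 passed the lowest WT liver, and the log2 fold change under total-read scaling was −0.25 (adjusted p = 0.0774, limma).

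Npas2, which can take the place of Clock beside Bmal1, moved the other way. This gene (ENSMUSG00000026077, chr1:39193731-39363236, plus strand) had 5.30, 8.74 and 9.44 normalized counts in WT and 24.4, 53.5 and 24.0 in Vps15LKO livers. Every Vps15LKO liver was above every WT liver, and replicate 2 was again the highest of its group. The counts behind this were small, with 4, 7 and 7 reads in WT and 32, 66 and 34 in Vps15LKO libraries of similar depth. The log2 difference was 1.92, and a fit over every gene above 0 in any liver, with no further filter, gave it an adjusted p of 0.00365 (limma with Benjamini-Hochberg adjustment). Under total-read scaling it was 2.59, and under quantile normalization 0.63, where it was not called.

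Among the repressors, the transcript of Rev-Erbα fell in each scaling tried. Nr1d1 (ENSMUSG00000020889, chr11:98767932-98775333, minus strand) had 6134, 6893 and 5023 normalized counts in WT and 2300, 2597 and 2125 in Vps15LKO livers, with a gap between the groups far wider than either spread. On the log2 scale Nr1d1 changed by −1.35 (SE 0.14, 95% interval −1.67 to −1.04, adjusted p = 5.07e-05, limma), a 2.56-fold difference. Nr1d1 also fell as a share of reads, from 260, 305 and 231 RPM in WT to 168, 177 and 166 in Vps15LKO livers, with a log2 fold change of −0.63 under total-read scaling (adjusted p = 0.000722, limma). It was the only one of the 7 called lower there. Quantile normalization gave −0.76 and reference-gene scaling −1.13, both called. Nr1d1 shares 263 exonic bases with Thra, the thyroid hormone receptor gene on the opposite strand. The library protocol marks strand, but whether counting used it is not given in the sources used here, and without it reads of the shared bases cannot be told apart. Thra had 1478, 1490 and 1196 normalized counts in WT and 831, 814 and 840 in Vps15LKO livers, a log2 fold change of −0.74 (adjusted p = 0.000317, limma).

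Nr1d2, whose product Rev-Erbβ overlaps in function with Rev-Erbα, fell less in normalized counts. It lies at chr14:18204054-18239127 on the minus strand (ENSMUSG00000021775) and had 1725, 1992 and 1566 normalized counts in WT and 1131, 998 and 946 in Vps15LKO livers. The groups did not overlap. The log2 fold change was −0.78 (SE 0.12, 95% interval −1.04 to −0.51, adjusted p = 0.000408, limma). The reads themselves, 1301, 1595 and 1162 in WT and 1481, 1232 and 1337 in Vps15LKO livers, were intermingled, and total-read scaling gave −0.051 (adjusted p = 0.696, limma).

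Nfil3, the D-box repressor, varied more in WT, relative to its mean normalized count, than the other members called lower. The gene (ENSMUSG00000056749, chr13:52967209-52981073, minus strand) had 469, 290 and 267 normalized counts in WT and 157, 212 and 132 in Vps15LKO livers. WT replicate 1 stood apart above the other WT livers, and Vps15LKO replicate 2 came nearest to WT. Nfil3 changed by −1.01 on the log2 scale (SE 0.24, 95% interval −1.56 to −0.46, adjusted p = 0.00559, limma), and −0.29 under total-read scaling (adjusted p = 0.226, limma).

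Rora, the activator that competes with Rev-Erb, had the smallest called difference. It spans chr9:68653786-69388246 on the plus strand (ENSMUSG00000032238). Normalized counts were 1417, 1252 and 980 in WT and 848, 807 and 759 in Vps15LKO livers. The Vps15LKO livers lay within a narrow band below the lowest WT liver. The log2 fold change was −0.58 (SE 0.14, 95% interval −0.89 to −0.27, adjusted p = 0.00498, limma), but 0.15 in the opposite direction under total-read scaling (adjusted p = 0.293, limma) and −0.35 under reference-gene scaling (adjusted p = 0.0904, limma), neither of them called. Rora shares 82 exonic bases with the antisense gene Gm15511, and Arntl shares 33 with Gm45355. Both antisense genes were low, with means of 32.6 and 23.8 normalized counts for Gm15511 and 2.22 and 7.43 for Gm45355 in WT and Vps15LKO livers.

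**Figure D2:**
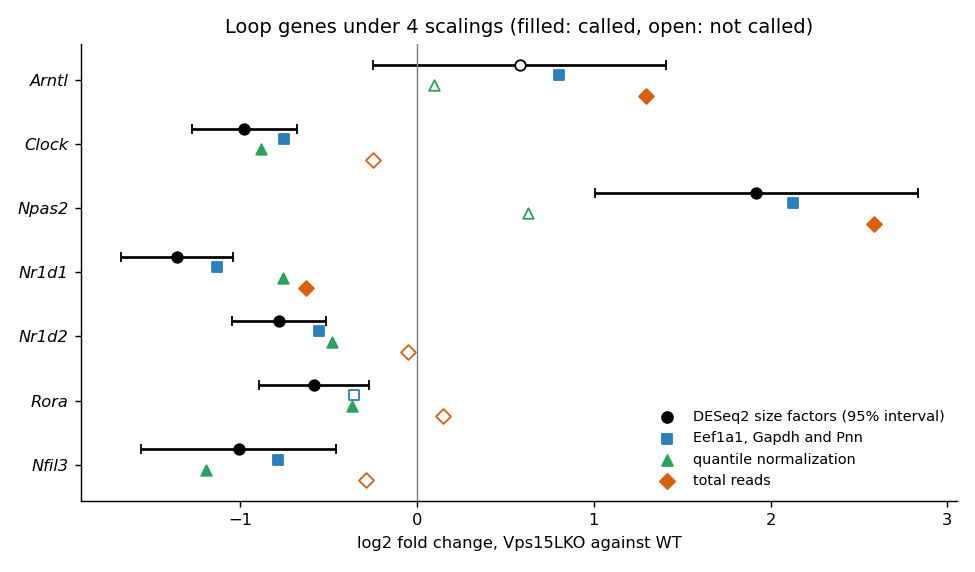
Log2 fold change of Vps15LKO against WT for each loop gene under 4 scalings, filled where called and open where not; bars on the DESeq2 size factor points are 95% intervals. Nr1d1 is called lower under all 4, whereas Rora lies at −0.58 with size factors and at 0.15 with total reads.

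Read as shares of the library, the loop genes divided differently. In RPM, 3 of the 7 did not overlap between genotypes, Arntl and Npas2 with higher and Nr1d1 with lower shares in Vps15LKO livers. Over all genes tested, 12.3% had no overlap in RPM with lower values in Vps15LKO livers and 69.7% with higher values. Clock, Nr1d2, Rora and Nfil3 overlapped. Under total-read scaling Arntl was called higher and Nr1d1 lower, with Npas2 again a description.

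**Figure D3:**
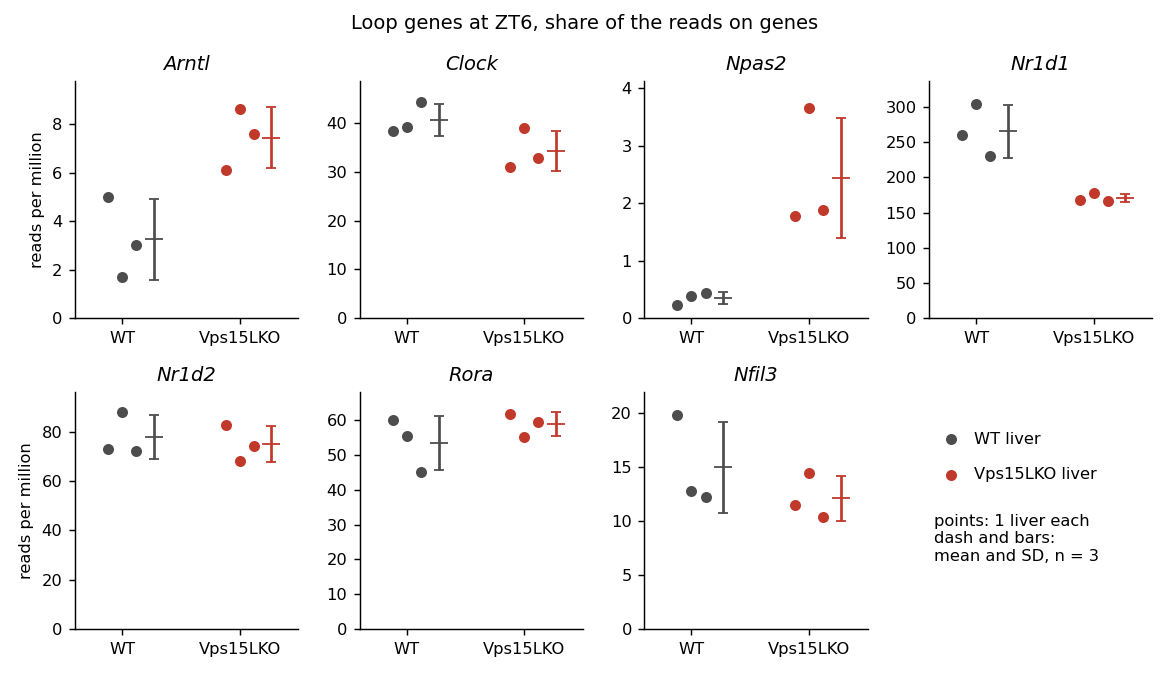
Reads scaled to the same total of reads on genes in every library (RPM) for the 7 loop genes, 1 point per liver, with the mean and SD (n = 3) beside each group. Nr1d1 falls from 231 to 305 in WT to 166 to 177 in Vps15LKO livers, Arntl and Npas2 lie higher without overlap, and the other 4 genes overlap.

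Ratios of genes within a liver are, apart from the pseudocount, the same under any scaling by 1 factor per library. The log2 ratio of Npas2 to Clock was −7.17, −6.51 and −6.53 in WT and −4.06, −3.39 and −4.07 in Vps15LKO livers, a difference of 2.89 (SE 0.31). It is given as a description with no test, because Npas2 passed the filter only where it was high. The log2 ratio of Arntl to Nr1d1, an activator over a gene it drives, was −5.69, −7.44 and −6.23 in WT and −4.76, −4.35 and −4.44 in Vps15LKO livers, higher by 1.94 (SE 0.53). That of Rora to Nr1d1, the activator and the repressor of ROR elements, was −2.11, −2.46 and −2.36 in WT and −1.44, −1.68 and −1.48 in Vps15LKO livers, higher by 0.77 (SE 0.13). None of these 3 ratios overlapped between genotypes.

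For the Rev-Erbs, the log2 ratio of Nr1d1 to Nr1d2 was 1.83, 1.79 and 1.68 in WT and 1.02, 1.38 and 1.17 in Vps15LKO livers, a difference of −0.58 (SE 0.11) without overlap. Nfil3 to Nr1d1 differed by 0.35 (SE 0.28) and Nfil3 to Dbp, its D-box competitor, by 0.28 (SE 0.41), and both overlapped. The exact two-sided permutation p was 0.1 for each of the 3 tested ratios without overlap, the smallest that 3 livers against 3 allow, and 0.3 and 0.5 for the other two. After Benjamini-Hochberg adjustment over the 5 ratios tested, the exact p-values were 0.167 for these 3, 0.375 for Nfil3 to Nr1d1 and 0.5 for Nfil3 to Dbp.

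**Figure D4:**
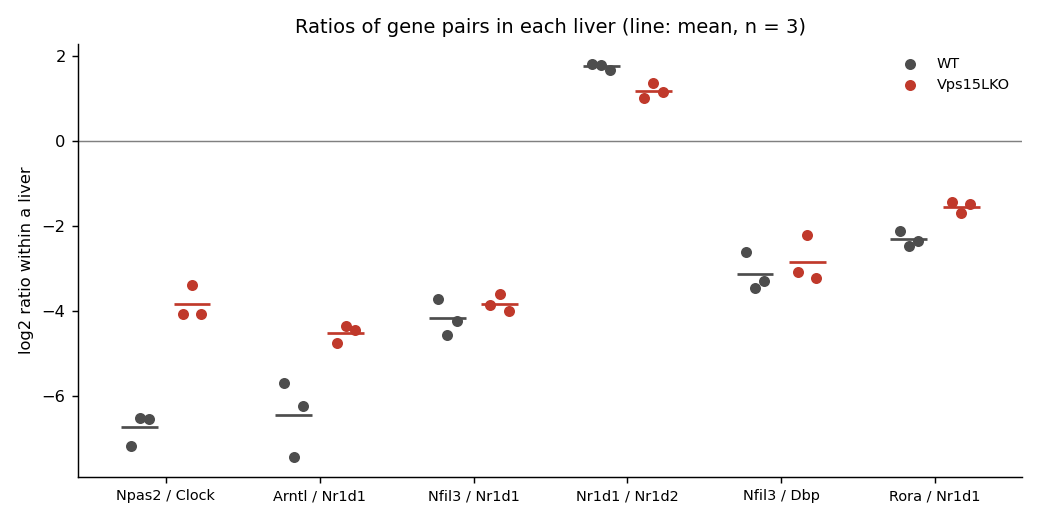
Log2 ratio of 6 gene pairs within each liver, 1 point per liver, with a line at the mean of each genotype (n = 3). Npas2 to Clock, Arntl to Nr1d1 and Rora to Nr1d1 lie higher and Nr1d1 to Nr1d2 lower in all Vps15LKO livers, and both Nfil3 ratios overlap.

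Levels were compared between members only per kilobase of exon. In WT livers Nr1d1 led with 1955 ± 306 normalized counts per kb (SD, n = 3), followed by Nr1d2 with 326 ± 39.8, Nfil3 with 169 ± 54.7, Rora with 93.1 ± 16.9, Clock with 66.9 ± 2.92, Arntl with 9.87 ± 5.35 and Npas2 with 1.63 ± 0.462. In Vps15LKO livers the order was the same, with 761 ± 77.6 for Nr1d1, 189 ± 17.7 for Nr1d2, 82.6 ± 20.2 for Nfil3, 61.6 ± 3.40 for Rora, 34.4 ± 6.30 for Clock, 13.6 ± 2.89 for Arntl and 7.09 ± 3.52 for Npas2 (SD, n = 3). By these means, Nr1d1 had the highest and Npas2 the lowest level per length in both genotypes. The ranges of neighbours in the order did not overlap in either genotype, although 2 pairs nearly touched in Vps15LKO livers. There the lowest Nfil3 value was 65.3 and the highest Rora value 64.8 per kb, and the lowest Arntl value was 11.17 and the highest Npas2 value 11.16 per kb.

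Of the paralogues outside the 7, Arntl2, a paralogue of Arntl, had 1, 0 and 2 reads in WT and 8, 19 and 25 in Vps15LKO livers and was too low to test. Rorb had 1 read in 1 WT liver and none elsewhere.

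The genes most like each member in profile were taken over the 6 livers, among genes that averaged 100 normalized counts or more, by the root-mean-square difference of log2 values set to the WT mean. Nearest to Nr1d1 were Plpp3 (0.0748) and Pdk2 (0.0765), to Clock Rmdn3 (0.0374) and Apof (0.0458), and to Nr1d2 Insr (0.0225) and Eif5 (0.0651). Nearest to Rora were D330041H03Rik (0.0467) and Mpc1-ps (0.0517), and Hsdl2 (0.133) was among the nearest to Nfil3. Such profiles were common, since 1057 genes lay within 0.2 of Rora, 925 of Nr1d2, 742 of Clock, 368 of Nr1d1 and 58 of Nfil3, out of 11247 compared. For Arntl and Npas2 no gene of 11248 lay within 0.2. The nearest were Dhrs13 (0.214) and Epha2 (0.272) for Arntl and Abcg3 (0.232) and Fam111a (0.316) for Npas2.

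Of 14 E-box outputs, the genes that Bmal1–Clock is known to drive besides Nr1d1 and Nr1d2, 9 fell, none was called higher and 5 were not called, with a median log2 fold change of −0.97, beside 33.0% lower and 33.5% higher over all genes. The largest differences were in Ciart, a repressor of Bmal1–Clock, with −1.90 (adjusted p = 0.00142, limma), and Hlf, a D-box activator, with −1.89 (adjusted p = 1.92e-06, limma). Ciart had 192, 171 and 225 normalized counts in WT and 63.4, 26.7 and 79.2 in Vps15LKO livers. Hlf had 1395, 1655 and 1357 in WT and 391, 403 and 385 in Vps15LKO livers. With quantile normalization 10 were called lower and 2 higher, where 37.6% of all genes were lower and 30.4% higher, and with total-read scaling 7 lower and 3 higher, where 11.1% of all genes were lower and 66.8% higher.

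Partners of the loop proteins were called in both directions with the authors' size factors, and their counts moved with the scaling. Of 6 genes of the Rev-Erb corepressor complex, 1 fell, 1 rose and 4 were not called, with a median of 0.11, beside 33.0% lower and 33.5% higher over all genes. Ncor1, the scaffold that Rev-Erb recruits, had a log2 fold change of −0.54 (adjusted p = 0.00158, limma) but 0.19 under total-read scaling, not called, and Gps2, a small subunit, had 0.34 (adjusted p = 0.0379, limma). Of 9 coactivators 4 fell, 1 rose and 4 were not called, with a median of −0.25. Ppargc1b had −0.97 (adjusted p = 0.0153, limma), Ncoa2 −0.82 (adjusted p = 0.000514, limma) and Kmt2a, a histone methyltransferase that works with Clock, 0.54 (adjusted p = 0.00532, limma). Neither Ppargc1b nor Ncoa2 was called under total-read scaling. In the corepressor complex none was called lower and 5 were called higher under total-read, 4 under quantile and 3 under reference-gene scaling. Over all genes, 37.6% were called lower and 30.4% higher under quantile normalization, and 20.8% and 38.8% under reference-gene scaling. Of the coactivators none was called lower and 5 were called higher under total-read scaling, where 11.1% of all genes were lower and 66.8% higher.

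Of 16 kinases, ligases and proteases that act on clock proteins, 5 fell, 4 rose and 7 were not called, with a median of −0.21. These shares are near those over all genes, 33.0% lower and 33.5% higher. Csnk1e, the casein kinase that marks period proteins for decay, had 179, 175 and 135 normalized counts in WT and 596, 516 and 666 in Vps15LKO livers, a rise of 1.86 on the log2 scale (adjusted p = 1.28e-05, limma). The catalytic subunits of AMPK, which marks cryptochromes for decay, went opposite ways, Prkaa1 by 0.56 (adjusted p = 0.00116, limma) and Prkaa2 by −0.81 (adjusted p = 0.00105, limma). Csnk2a1, a catalytic subunit of casein kinase 2, had −0.95 (adjusted p = 9.21e-05, limma). Under total-read scaling Prkaa2 and Csnk2a1 were not called, and 13 of the 16 were called higher, where 66.8% of all genes were.

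Of 12 genes known to be repressed by Rev-Erb or its corepressor in liver, 4 fell, 5 rose and 2 were not called, beside 33.0% lower and 33.5% higher over all genes. The remaining gene, Elovl3, passed the filter through WT livers only and is given as a description. Elovl3, a fatty acid elongase, had 1655, 1566 and 1986 normalized counts in WT livers and 1, 0 and 0 reads in Vps15LKO livers. The ratio of summed reads was 6850-fold, with an exact 95% counting interval of 1229 to 270612, which leaves out the spread between livers. G6pc, the last enzyme of glucose release, had 4242, 2900 and 5513 normalized counts in WT and 479, 1255 and 142 in Vps15LKO livers, −3.21 on the log2 scale (adjusted p = 0.00240, limma). Lpl, lipoprotein lipase, had 411, 518 and 1593 normalized counts in WT and 6460, 5843 and 5387 in Vps15LKO livers, a rise of 3.07 on the log2 scale (adjusted p = 0.000266, limma). Cry1 is counted among both the E-box outputs and these genes.

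**Figure D5:**
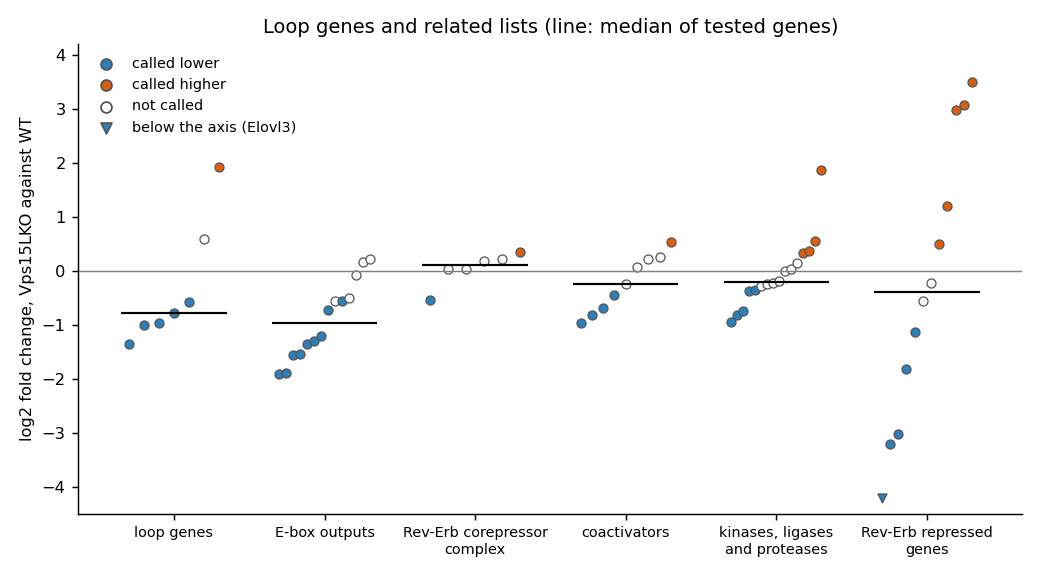
Log2 fold change of Vps15LKO against WT for each tested gene of the loop and of 5 related lists, coloured by call, with a line at each list's median; the triangle marks Elovl3, which lies below the axis. E-box outputs hold 9 lower and no higher call, and the genes repressed by Rev-Erb hold 5 higher and, beside Elovl3, 4 lower calls.

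Markers of several cell types moved with the genotype. Of 10 hepatocyte markers 8 were called lower and none higher in Vps15LKO livers, beside 33.0% lower and 33.5% higher over all genes. Counting only markers that passed the filter in WT livers, 9 of the 10 macrophage and 8 of the 8 stellate cell and fibroblast markers were called higher. So were 3 of the 5 cholangiocyte, 1 of the 8 T and NK cell, 1 of the 4 proliferation and none of the neutrophil markers. In WT livers alone, 7 of the 8 T and NK cell markers, both neutrophil markers, 2 of the cholangiocyte markers and 3 of the proliferation markers did not pass the filter, so these entered the test through the Vps15LKO livers only and their calls are not read. The summed normalized counts ranged from 7580 to 8997 in WT and from 25598 to 29042 in Vps15LKO livers for macrophages, from 126 to 135 and from 429 to 553 for T and NK cells, and from 6652 to 7109 and from 26241 to 30565 for stellate cells. For cholangiocytes they ranged from 662 to 787 and from 11426 to 22425, for neutrophils from 9.44 to 17.2 and from 94.7 to 163, with Ly6g at 0 in all WT livers, and for proliferation from 77.4 to 282 and from 2069 to 2128. Endothelial markers had 3 lower and 3 higher of 6 (5996 to 6460 and 4747 to 6254), and the 1 B cell marker tested was not called (sums of 38.5 to 70.1 and 25.5 to 45.1). Their part in the values of Npas2, Clock, Nr1d1, the other loop genes and the related lists was not tested.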

How the data were processed

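RNA-Seq libraries from the livers of 3 WT and 3 Vps15LKO mice, each a separate animal, were analysed. The authors used SOAPnuke to filter reads, HISAT2 to map them to GRCm38 and featureCounts to count them, and divided each library by 1 DESeq2 size factor. Tool versions and the strand and multi-mapping settings are not given in the sources used here. The deposited values are a signal, the normalized read count per gene, and 100% of values above 0 were whole multiples of 1 read (tolerance 0.01), so reads were recovered for the alternatives. Groups and replicate numbers come from the labels. The replicate numbers are tied to no litter, and same-numbered libraries did not deviate together (correlations of −0.01, −0.01 and 0.05), so no block was used.

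The 15430 genes that reached 20 normalized counts in 3 or more livers were compared with limma 3.58.1 (lmFit, eBayes with a trend) in R 4.3.3 on log2(normalized count + 1), with Benjamini-Hochberg adjustment over all of them. The fit was first tested on simulated data. Elovl3 was compared on its summed reads, and its interval covers counting error only. Alternatives were pseudocounts of 0.1 and 10, other filters, TMM, upper-quartile, quantile, total-read and reference-gene scaling, limma with no trend, 3 tools on the recovered reads (DESeq2 1.42.0, edgeR 4.0.16 and voom), other fold thresholds, a replicate block and each liver left out. The members and lists were chosen with earlier results of these data known. Genes named are the 7 members, their paralogues, Pik3r4, overlapping genes, up to 2 called lower and 2 called higher of largest change in each list, and the 2 nearest profiles of each member. Dbp was named for a ratio. Some genes that this rule names are not reported here. Gene models came from GENCODE M21 (55227 genes matched) and promoters from RefSeq. Tables and figures were made with Python 3.11.15, numpy 2.4.6, pandas 2.3.3, scipy 1.17.1 and matplotlib 3.10.9.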

Additional observations from a re-analysis of the deposited data

How the results depend on the processing

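Of 352 values recomputed under an alternative, 322 kept their direction and call, or, for counts, moved little, or, for ratios, moved by less than the SD within genotypes. Total-read scaling changed most: Arntl was called higher (1.30), Clock (−0.25), Nr1d2 (−0.051) and Nfil3 (−0.29) lost their calls, and Rora turned to 0.15, leaving 1 member lower, 2 higher (Npas2 included here and below, which passed the filter only where it is high) and 3 E-box outputs higher. Over all genes, 11.1% were called lower and 66.8% higher under total-read scaling. Reference-gene scaling called Arntl higher (0.80, so 2 members higher, Npas2 among them), lost Rora (−0.35) and called 1 E-box output higher. Over all genes it called 20.8% lower and 38.8% higher. Upper-quartile scaling also called 1 E-box output higher, with 9996 genes called in either direction. Quantile normalization lost Npas2 (0.63), leaving 0 members higher, and called 2 E-box outputs higher, where 37.6% of all genes were lower and 30.4% higher. A fold of at least 2 left 5185 genes called and 2 members lower, without Clock (−0.98), Nr1d2 (−0.78) and Rora (−0.58). Npas2 was not tested with 20 normalized counts required in all 6 livers (0 members higher), nor without any 1 Vps15LKO liver, because too few livers then reach 20. A pseudocount of 10 moved the ratio of Npas2 to Clock to 2.21. With each liver left out in turn, Arntl ranged from 0.19 to 0.98 (called without WT replicate 1). Members called higher ranged from 0 to 2 and E-box outputs called higher from 0 to 1 (1 without WT replicate 2). Over all genes, 8058 to 10034 were called in these fits. The ratio of Nfil3 to Nr1d1 ranged from 0.15 to 0.58, and that of Nfil3 to Dbp from −0.026 to 0.54, turning without Vps15LKO replicate 2. The causes were not tested. With a replicate block, Arntl had an adjusted p of 0.199 (limma), 5 members were lower, and no call of the 6 members other than Npas2 changed. Depth limits Npas2, with 4 to 7 reads in WT libraries.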
